A study of Chlorocebus sabaeus with 6 samples.

Results

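The features described here are 4450 of the 51520 rows of an expression table of COS-1 cells: rows named by accessions that begin with JK whose positions overlap no row named by a human protein accession. They were chosen by 3 criteria. The position of the row overlaps none of the 19602 rows whose names begin with ENSP, it lies outside chromosomes 15, 20, 21 and 26, and its mean over the 6 libraries is at least 1 FPKM (fragments counted relative to feature length and library size). COS-1 is a line of African green monkey (Chlorocebus sabaeus) kidney cells that carries genes of a simian virus. The labels give 3 control libraries, from untreated COS-1 cells, and 3 libraries from COS-1 cells treated with lentivirus; its content is not labelled. Both groups were kept without serum for 14 h and then exposed for 90 min to EGF, the epidermal growth factor, at 2 ng/ml, so no sample without EGF enters the comparison. The series title names SHOC2, a scaffold of the kinase pathway from RAS to ERK, which EGF activates.

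ENSP is the prefix that Ensembl gives to human proteins. A protein placed on a genome marks the coding exons of a gene and the introns between them; the untranslated ends of the messenger RNA, RNAs that code for no protein and genes with no matched protein lie outside it. The table gives no organism, strand, exon or gene name for a JK accession, and 0 of its 51520 names matched the RefSeq gene table of this monkey, so which of these a JK row stands for, and whether it is a monkey transcript at all, cannot be read from the table. The text calls these features outside JK rows and gives them by position. The genome build of the positions is not given in the sources used here.

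The labels leave it unsaid if each replicate was grown separately. Every p-value therefore refers to the spread among these 6 libraries, which could be technical alone. With FPKM and no counts of reads, the depth behind each library is unknown. Over the outside JK rows, Pearson's r of log2(FPKM + 1) between libraries, taken across rows, which are not independent, was 0.927 to 0.948 for the 6 pairs within a group and 0.919 to 0.942 for the 9 pairs between groups.

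Of 31829 JK rows, 9746 overlapped no ENSP row; 1726 of these lay on the 4 chromosomes left out. Of the other 8020, 3570 had a mean under 1 FPKM, and 2437 of those were under 0.0001 FPKM. The 174 that lay on unplaced scaffolds were all listed at 0. Of the 4450 rows kept, 3805 had at least 1 FPKM in every library, and 40 were listed at 0 in at least 1 library. Values of rows next to the limit overlapped across it. Just above it, a row on chromosome 9 (38502831 to 38503311) had 0.905, 0.759 and 0.618 FPKM in control libraries and 1.05, 1.25 and 1.42 FPKM in lentivirus libraries. Just below it, a row on chromosome 7 (129434471 to 129435139) had 0.906, 0.498 and 1.06 FPKM in control libraries and 1.03, 0.984 and 1.51 FPKM in lentivirus libraries.

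The outside JK rows were short. Their median span, from first to last base and with any introns, was 594 bases (quartiles 341 and 698), against 2878 bases for the 9580 JK rows of at least 1 FPKM that overlap an ENSP row and 18794 bases for the 13509 ENSP rows of at least 1 FPKM. A span of at least 500 and under 1000 bases was the most common class, with 2068 rows (46.5%). Of the shorter rows, 1176 reached 200 bases and 562 did not; of the longer ones, 483 were under 10000 bases and 161 were not. The longest 3 overlapped each other on chromosome 17, between 40558237 and 40919523, with spans of 361287, 281385 and 280468 bases and levels of 0.530 to 2.62 FPKM.

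Most of them lay close to an ENSP row. The median distance, in bases between the 2 features, was 1607.5 (quartiles 492 and 6571), and 1362.5 for the 1922 rows that overlapped no other row of any kind. There were 245 rows under 100 bases from an ENSP row, 1539 others under 1000 bases, 1742 more under 10000, 736 more under 100000 and 188 farther away. Farther rows spanned somewhat more bases (Spearman's rho of 0.27 across the 4450 rows, a description), while distance and level were nearly unrelated (rho of 0.05). The 3 most distant lay together on chromosome 17 between 7878709 and 7879727, from 1877862 to 1878146 bases away from the nearest ENSP row. All 3 were low, with 0.130 to 6.47 FPKM over the 6 libraries, and none was called (limma adjusted p = 0.208 to 0.865). The plot of spans and distances shows both distributions.

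**Figure D1:**
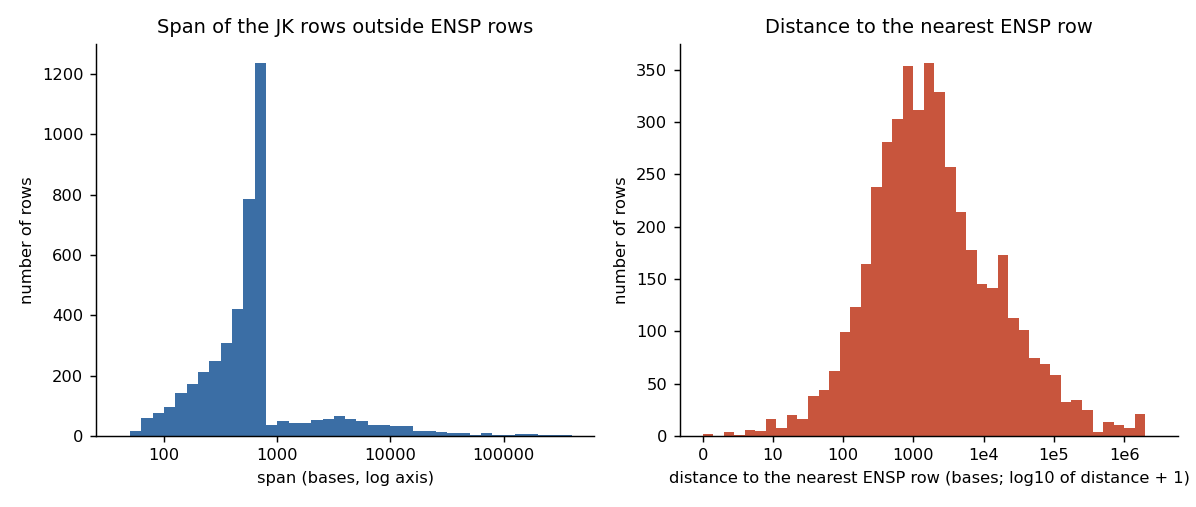
Number of outside JK rows by span in bases (left, log axis) and by distance in bases to the nearest ENSP row (right, log10 of the distance + 1), for all 4450 rows. Spans pile up well under 1000 bases, around the median of 594 (upper quartile 698), and distances spread around the median of 1607.5.

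In level, the outside JK rows had a median of 14.5 FPKM (quartiles 5.13 and 52.5), against 14.5 for JK rows that overlap an ENSP row and 11.3 for ENSP rows. A long upper tail held much of the signal: 746 rows reached 100 FPKM and 105 reached 1000. Together the 4450 rows held 34.3% to 35.3% of all FPKM in each library. The 6 most abundant alone held 28.9% to 30.9% of what the outside JK rows held. FPKM is a level per length, and the 562 rows under 200 bases had a median of 37.9 FPKM and those from 500 to under 1000 bases one of 10.2 FPKM.

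The most abundant row spanned only 71 bases, on chromosome 1 (57976751 to 57976821). It had 75107, 67645 and 75695 FPKM in control libraries and 83779.5, 82514 and 73303 FPKM in lentivirus libraries. The groups overlapped (log2 change 0.13, SE 0.084, limma adjusted p = 0.405). A second short row, of 63 bases on chromosome 14 (29860075 to 29860137), had 45644, 44772 and 51834.5 FPKM in control libraries and 32731, 33675 and 31315 FPKM in lentivirus libraries. Here every lentivirus library was below every control library, and the row fell by 0.54 on the log2 scale (SE 0.077, limma adjusted p = 0.0251). A 131-base row on chromosome 24 (80017788 to 80017918) had 13656 to 13933 FPKM in control and 14755 to 16233 FPKM in lentivirus libraries, without a call (log2 change 0.17, limma adjusted p = 0.123). The other 3 of the 6 lay in 1 crowded stretch of chromosome 17, between 1626940 and 1629503, where 545 rows overlap in a chain. Its highest row had 64532.5 to 69878 FPKM in control and 69583 to 77874 FPKM in lentivirus libraries (log2 change 0.15, limma adjusted p = 0.277). The 32 outside JK rows of that stretch held 21.5% to 21.9% of the FPKM of all outside JK rows in control libraries and 24.2% to 24.8% in lentivirus libraries, and 0 of the 32 were called (the limma test over all rows).

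Spread between replicates differed with span and with the number of overlapping rows. The median within-group SD of log2(FPKM + 1) was 0.17 for outside JK rows, 0.23 for JK rows that overlap an ENSP row and 0.091 for ENSP rows. It was 0.55 for outside JK rows under 200 bases and 0.14 for those from 500 to under 1000 bases. It was 0.15 for rows that overlapped no other and 0.37 for those that overlapped more than 20. The shortest row, 51 bases on chromosome 7 (19401945 to 19401995), had 183, 0 and 10.8 FPKM in control libraries and 28.7, 9.74 and 23.4 FPKM in lentivirus libraries, a range within each group as wide as its level.

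The comparison asked which outside JK rows had another level after lentivirus than in control. By limma on log2(FPKM + 1), fitted over all 28434 rows of at least 1 FPKM with Benjamini-Hochberg adjustment, 93 of the 4450 were higher and 94 lower at an adjusted p under 0.05, or 4.20%. Over all tested rows 6.48% were called, 2.89% higher and 3.59% lower. The share was 3.28% (314 of 9580) for JK rows that overlap an ENSP row and 9.40% (1270 of 13509) for ENSP rows. Whether these shares differ beyond level and spread was not tested: at 100 FPKM or more 6.97% of outside JK rows and 15.4% of ENSP rows were called, and at 1 to 5 FPKM 1.19% and 3.76%. The control and lentivirus libraries did not overlap in 1091 outside JK rows (24.5%), against 31.6% of all tested rows. The median log2 change of the outside JK rows was 0.025, against -0.00097 over all tested rows, and the median absolute change of the called ones was 0.46. By library, their median deviation from a row's mean was 0.00092, 0.0071 and -0.013 log2 in control libraries. In lentivirus libraries it was -0.00015, 0.017 and 0.023 log2, so the groups overlapped.

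Leaving out any 1 library removed most calls. The calls among outside JK rows came to 9, 19 and 6 with control replicate 1, 2 or 3 left out, and to 4, 14 and 16 with lentivirus replicate 1, 2 or 3 left out. Over all 28434 tested rows the calls fell likewise, from 1842 to 67, 118 and 63, and to 48, 75 and 85, in the same order. Of the 187 rows called with all libraries, 3 were called in each of those 6 fits and 162 in none. With 3 libraries a group, the smallest p of an exact two-sided permutation test is 0.10.

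**Figure D2:**
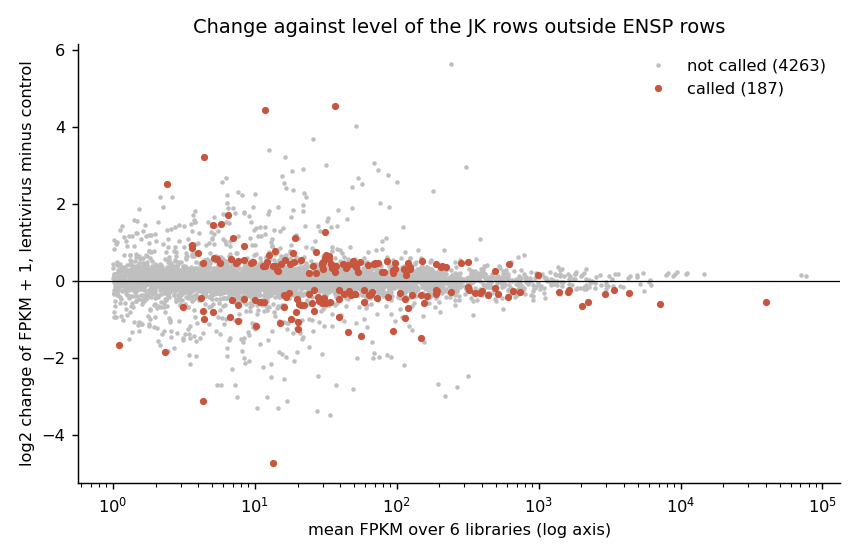
Log2 change of FPKM + 1, lentivirus minus control (y axis), against the mean FPKM over 6 libraries (x axis, log) for each of the 4450 outside JK rows, with the 187 called rows in red. Called rows lie on both sides of 0, 93 higher and 94 lower.

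Joining overlapping rows into loci gave a second view, in which rows that overlap are counted once. The outside JK rows fell into 2974 loci, 2249 of them with 1 such row. In 2633 loci there was no ENSP row, and their FPKM was summed and tested among all 16073 loci of at least 1 FPKM. Of these 2633, 184 were higher and 172 lower (13.5%; limma adjusted p under 0.05), while 19.5% of all tested loci were called, 8.88% higher and 10.6% lower. The 1922 outside JK rows that overlap no other gave 78 calls (4.06%) in the test over rows. Of all tested rows that overlap no other, 8.76% were called. With a change of at least 1 log2, 2 of the 1922 were called, against 40 of all 9951 tested rows that overlap no other (0.402%). On the same values, 210 of the 1922 were called in the test over loci. Called loci numbered 229, 254 and 189 with control replicate 1, 2 or 3 left out, and 214, 165 and 183 with lentivirus replicate 1, 2 or 3 left out. In the 16 loci with at least 2 called outside JK rows, the called rows were all higher in 8, all lower in 7 and mixed in 1; rows of a locus overlap directly or through others and can share fragments.

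The largest increases were taken among called rows with at least 5 FPKM in the higher group, at least 1 FPKM in every library and groups that do not overlap, which 87 higher and 88 lower rows met. JK090900.1_1 (chromosome 1, 119944134 to 119944678) had 1.88, 2.75 and 2.87 FPKM in control libraries and 9.64, 10.6 and 11.3 FPKM in lentivirus libraries. It rose 4.21-fold, by 1.73 log2 (SE 0.14, limma adjusted p = 0.0117). The ENSP row that ends 193 bases before it rose as well, from 2.64 ± 0.103 to 8.82 ± 0.600 FPKM (SD, n = 3; log2 change 1.43, limma adjusted p = 0.00529). JK112617.1_1 (chromosome X, 8599093 to 8599259) had 2.11, 2.44 and 3.16 FPKM in control libraries and 11.6, 8.18 and 7.27 FPKM in lentivirus libraries. Its log2 change was 1.48 (SE 0.20, limma adjusted p = 0.0224), and the ENSP row 1604 bases away missed the threshold with a log2 change of 0.49 (limma adjusted p = 0.0529). Both lost their call when 1 library was left out, the first in 5 and the second in 6 of the 6 fits. As loci they were called in all 6, but the locus of the first has 4 rows and holds an ENSP row, and that of the second is the row itself.

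A second stretch of chromosome 1 held another called row. The row from 119589285 to 119589559 had 3.62, 1.46 and 1.84 FPKM in control libraries and 8.68, 5.97 and 8.95 FPKM in lentivirus libraries (log2 change 1.46, SE 0.28, limma adjusted p = 0.0465). It lies 2479 bases before an ENSP row that rose by 1.00 log2 (limma adjusted p = 0.0142). On chromosome 5, the row from 21934837 to 21935506 was tight within groups, with 5.53, 5.698 and 5.49 FPKM in control and 11.9, 10.96 and 10.9 FPKM in lentivirus libraries. It was 2.02-fold higher (log2 change 0.90, SE 0.060, limma adjusted p = 0.00835), 133 bases after an ENSP row that rose by 1.09 log2 (limma adjusted p = 0.00593). On chromosome 17, the row from 35892036 to 35892746 was 1.77-fold higher, at 17.6 ± 1.13 FPKM against 9.95 ± 1.03 FPKM in control (SD, n = 3; limma adjusted p = 0.0186), beside an ENSP row with a log2 change of 0.79 (limma adjusted p = 0.0142).

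The other 3 of the 8 largest rises lay in crowded loci, and 2 of those loci were not called. They were a row on chromosome 17 (40919677 to 40919864, 17.7 ± 2.75 to 44.9 ± 9.67 FPKM; SD, n = 3), one on chromosome 6 (39778399 to 39779132, 4.03 ± 0.948 to 9.93 ± 1.87 FPKM) and one on chromosome 1 (62895906 to 62896069, 11.8 ± 3.07 to 26.3 ± 2.43 FPKM). All 3 passed in limma, at adjusted p of 0.0280, 0.0370 and 0.0373. The summed loci around them, of 418, 48 and 13 rows, each hold an ENSP row and had log2 changes of 0.49, 0.46 and 0.033 (limma adjusted p = 0.0331, 0.108 and 0.941). The first of these loci is also where the longest rows lie, and it kept its call in 2 of 6 fits without a library.

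Of the 8 largest falls, 4 came from 2 places on chromosome 8. JK117745.1_1 (chromosome 8, 127668014 to 127668198) had 210, 231 and 215 FPKM in control libraries and 67.6, 72.2 and 97.1 FPKM in lentivirus libraries. It fell 2.77-fold, with a log2 change of -1.47 (SE 0.14, limma adjusted p = 0.0142). The next row, from 127668369 to 127669125, had 60.2, 64.4 and 69.8 FPKM in control and 24.2, 25.5 and 26.2 FPKM in lentivirus libraries. That row fell 2.56-fold (log2 change -1.32, SE 0.068, limma adjusted p = 0.00512), and was the only one of the 16 named rises and falls that stayed called in all 6 fits without a library. Both lie before the same ENSP row, at 1520 and 593 bases, which fell from 81.5 ± 5.94 to 29.7 ± 1.97 FPKM (SD, n = 3; limma adjusted p = 0.00529).

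The other place on chromosome 8 held a pair of rows that overlap each other. The row from 120020214 to 120020907 had 27.7, 28.5 and 30.2 FPKM in control and 10.4, 10.8 and 13.8 FPKM in lentivirus libraries, and its partner, from 120020415 to 120021267, had 21.9, 18.7 and 22.3 FPKM in control and 10.2, 7.33 and 10.5 FPKM in lentivirus libraries. Their log2 changes were -1.24 and -1.10 (limma adjusted p = 0.0137 and 0.0235). The ENSP row that ends 329 bases before the first fell from 39.3 ± 1.47 to 15.7 ± 1.11 FPKM (SD, n = 3; log2 change -1.27, limma adjusted p = 0.00512).

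JK095726.1_1 (chromosome 16, 70941896 to 70942100) had 85.7, 80.8 and 78.1 FPKM in control libraries and 25.1, 34.6 and 29.6 FPKM in lentivirus libraries. It fell 2.74-fold (log2 change -1.44, SE 0.12, limma adjusted p = 0.0123), and the ENSP row 107 bases after it fell by 1.59 on the log2 scale (limma adjusted p = 0.00376). On chromosome 19, a row from 11670825 to 11671474 fell from 14.6 ± 3.39 to 5.81 ± 1.27 FPKM (SD, n = 3; limma adjusted p = 0.0414), with a called ENSP row 121 bases after it (log2 change -0.64). Neither of the last 2 had a called neighbour, and for the last of them the nearest ENSP row was too low to be tested. A row of 75 bases on chromosome 22 (4792536 to 4792610) had 139, 159 and 106 FPKM in control and 73.2, 49.8 and 42.0 FPKM in lentivirus libraries (log2 change -1.30, limma adjusted p = 0.0466), while the ENSP row 2501 bases away had a log2 change of 0.078 (limma adjusted p = 0.573). A row on chromosome 1 (128401 to 129345), in a locus of 55 rows with no ENSP row, had 27.0, 28.3 and 27.0 FPKM in control and 13.7, 14.2 and 9.93 FPKM in lentivirus libraries (log2 change -1.08, limma adjusted p = 0.0203). Its nearest ENSP row, 14952 bases away, had 0.769 ± 0.270 FPKM in control and 0.817 ± 0.237 FPKM in lentivirus libraries (SD, n = 3).

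Of the 8 largest rises, 4 had a called nearest ENSP row, and of the 8 largest falls, 6. In each of those cases the ENSP row was called in the same direction as the JK row. For 2 of the rises and 1 of the falls the nearest ENSP row was under 1 FPKM and not tested. On chromosome 8, 2 ENSP rows are each the neighbour of 2 of the falls. Some of the loci around these 16 rows hold an ENSP row, whose level then enters the sum: 4 of those of the rises, of which 2 were called, and 1 of those of the falls, which was called. Of the loci without an ENSP row, 4 of 4 for the rises and 7 of 7 for the falls (2 of which share a locus) were called (limma adjusted p under 0.05), and 4 and 6 stayed called without any 1 library. Each sum includes the named row, and 3 of the rises and 1 of the falls are alone in their locus, so these calls are the same values tested among loci. The same holds nearly for the falls at 127668014 and 127668369 on chromosome 8 and at 70941896 on chromosome 16. Their summed loci had control means of 218.6, 64.78 and 81.56 FPKM, as the named rows had alone. The plot of single libraries shows that in each of the 16 rows the groups are separate, as the naming rule requires.

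**Figure D3:**
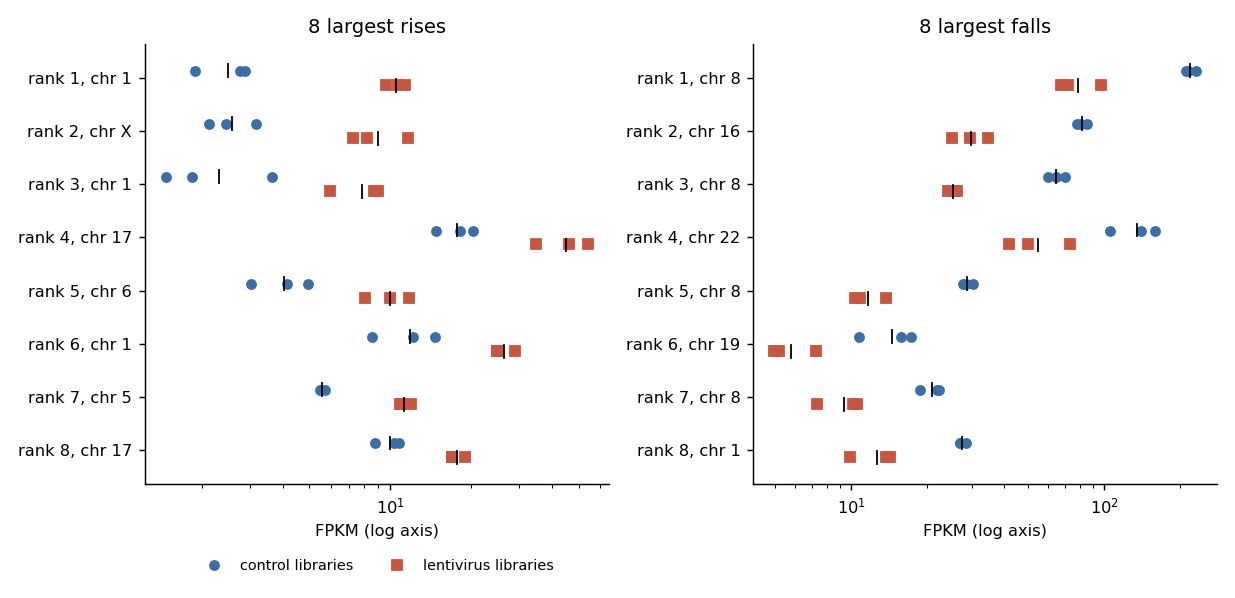
FPKM in each library (x axis, log) of the 8 called outside JK rows with the largest rises (left) and falls (right), ranked by log2 change and marked with their chromosome; circles are control libraries, squares lentivirus libraries, and vertical ticks the group means of 3. In every row the squares lie to one side of the circles, with rank 1 at 1.88 to 2.87 against 9.64 to 11.3 FPKM on the left and at 210 to 231 against 67.6 to 97.1 FPKM on the right.

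Some of the largest fitted changes belonged to rows that were close to absent in 1 group. Of the 23 called rows with a change of at least 1 log2 (0.419% of all tested rows were called at that size), 15 had at least 1 FPKM in every library, 6 higher and 9 lower. The other 8, of which 4 were higher and 4 lower, had a library under 1 FPKM. None of the 8 was alone in its locus. A row on chromosome 4 (31860836 to 31877072) had 0.0249, 0.0742 and 0.244 FPKM in control and 26.6, 22.3 and 21.2 FPKM in lentivirus libraries, a log2 change of 4.45, while its locus of 9 rows, summed, was called in the opposite direction, with a log2 change of -0.17 (limma adjusted p = 0.0291). A row on chromosome 6 (5348745 to 5348817) had 22.0, 37.7 and 20.5 FPKM in control libraries and under 0.0001 FPKM in each lentivirus library, a log2 change of -4.74, while its locus of 2 rows had one of -0.15 (limma adjusted p = 0.0825). How FPKM was divided between overlapping rows was not tested. Another row, on chromosome 9 (6354609 to 6354709), had 1.86, 0.000631 and 6.13 FPKM in control and 63.9, 34.3 and 114 FPKM in lentivirus libraries, and its locus of 2 rows was called too, with a log2 change of 1.21 (limma adjusted p = 0.0241). Calls of at least 1 log2 came to 7, 6 and 5 with control replicate 1, 2 or 3 left out, and to 4, 11 and 9 with lentivirus replicate 1, 2 or 3 left out.

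Summed loci without an ENSP row gave 15 calls of at least 1 log2, 6 higher and 9 lower, where 0.442% of all tested loci were called at that size. Among them was a 2-row locus on chromosome 16 (2015451 to 2015956) with no called row. It fell 3.61-fold, from 25.8 ± 4.87 to 7.15 ± 3.52 FPKM (SD, n = 3; limma adjusted p = 0.0120), and kept its call without any 1 library. In all, 222 of the 356 called loci held no outside JK row that was called by itself, and 12 loci that held a called row were not called.

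The nearest ENSP row was itself tested for 3870 of the 4450 outside JK rows, and the 2 features tended to change in the same direction where they were close. Pearson's r between their log2 changes was 0.27 over the 1599 pairs under 1000 bases apart, 0.25 over the next 1594 pairs, under 10000 bases, 0.13 over 561 pairs under 100000 bases and 0.13 over 116 pairs beyond. Spearman's rho was 0.48, 0.41, 0.24 and 0.15 in the same order. These are descriptions across rows that share all 6 libraries, and 1 ENSP row can be the neighbour of several JK rows. For the outside JK rows of at least 20 FPKM that overlap no other row, a limit set after the values were seen, rho was 0.61 over 344 pairs under 1000 bases and 0.39 over 246 pairs from 1000 to under 10000 bases. It was 0.064 over 73 pairs from 10000 to under 100000 bases and 0.64 over the 20 pairs beyond, so in this subset it did not fall steadily with distance; r was 0.35, 0.30, 0.069 and 0.18.

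Calls were counted in the same classes. Under 1000 bases, 72 called outside JK rows had a tested nearest ENSP row. Of these ENSP rows, 39 were called in the same direction, 0 in the opposite direction (the limma test over all rows, as for the others) and 33 were not called. From 1000 to under 10000 bases, 26 of 66 were called in the same direction and 2 in the opposite one. From 10000 to under 100000 bases the counts were 3 and 0 of 19, and beyond that 1 and 1 of 7. For all outside JK rows with a tested nearest ENSP row, called or not, that ENSP row was called in either direction in 10.1%. By class of distance the shares were 11.6%, 9.35%, 6.06% and 18.1%, in the same order. Seen from the other side, 318 of the 390 outside JK rows with a called nearest ENSP row were not called themselves. Of all 3870 with a tested nearest ENSP row, 164 were called. For these 164, the ENSP row was called in the same direction in 69, in the opposite one in 3 and not called in 92. The plot of paired changes shows the called rows along the rising diagonal in the first 2 distance classes.

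**Figure D4:**
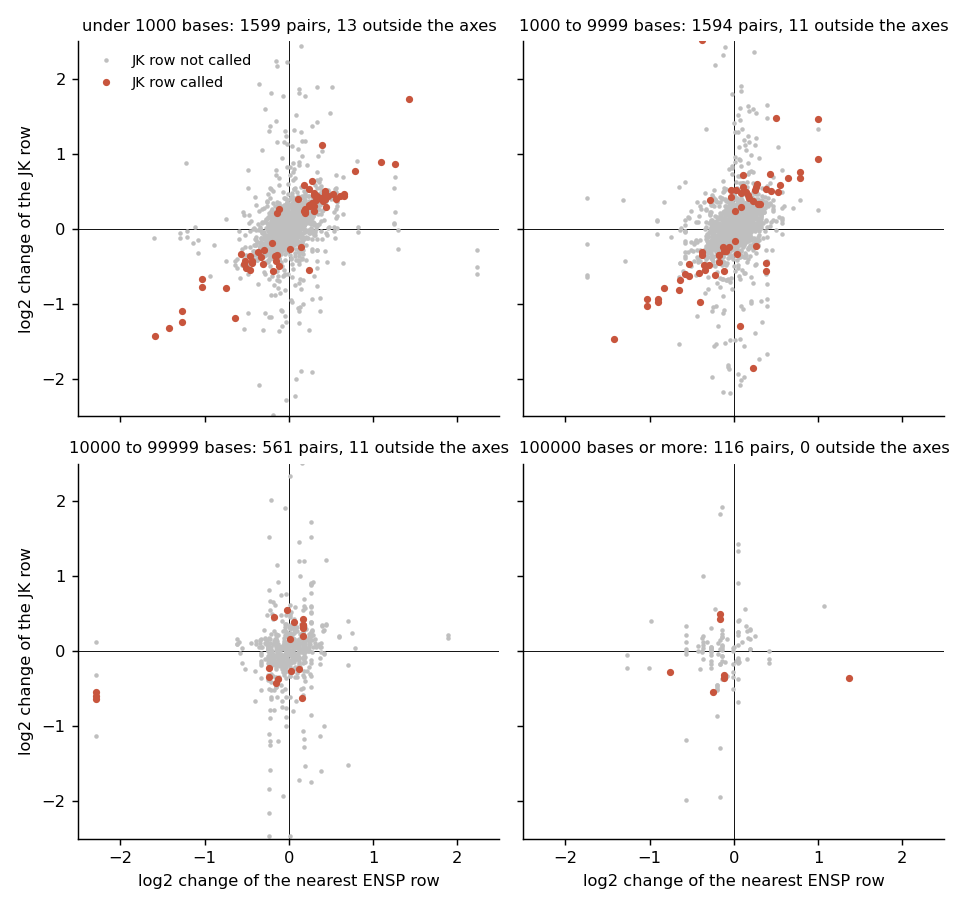
Log2 change of each outside JK row (y axis) against that of its nearest ENSP row (x axis), in 4 classes of distance, with called JK rows in red; pairs beyond 2.5 log2 lie outside the axes and are counted in each title. Under 1000 bases 67 of the 72 red points have the same sign on both axes, and 0 pairs were called in opposite directions.

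The most abundant called rows with a called neighbour were 3 overlapping rows on chromosome X. The highest (62095118 to 62096353) had 8643, 8646 and 8611 FPKM in control libraries and 5548, 5723 and 5834 FPKM in lentivirus libraries. It fell 1.51-fold (log2 change -0.60, SE 0.039, limma adjusted p = 0.00811). A pair of rows that overlap it fell from 2649 ± 31.6 to 1812 ± 14.9 FPKM and from 2455 ± 118 to 1575 ± 85.7 FPKM (SD, n = 3; limma adjusted p = 0.00623 and 0.0137). Their nearest ENSP row, from 62126463 to 62127674, is 24559 to 31299 bases away and fell more, from 47.0 ± 4.53 to 8.79 ± 0.219 FPKM (limma adjusted p = 0.00252). On chromosome 11, a 90-base row (42421767 to 42421856) had 693 ± 27.8 FPKM in control and 516 ± 37.0 FPKM after lentivirus, 56 bases before an ENSP row that fell from 45.4 ± 1.29 to 31.2 ± 0.704 FPKM (limma adjusted p = 0.0298 and 0.0117). On chromosome 10, a row from 102049950 to 102050185 rose from 444.5 ± 14.0 to 535 ± 24.99 FPKM, and the ENSP row 794 bases before it rose from 235 ± 6.70 to 267 ± 2.09 FPKM (limma adjusted p = 0.0429 and 0.0458).

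The 3 called rows whose nearest ENSP row was called in the opposite direction all fell beside an ENSP row that rose. They lay at 2 places. On chromosome 6, the row from 40140232 to 40143398 had 198, 168 and 197 FPKM in control and 128, 128 and 121 FPKM in lentivirus libraries (log2 change -0.57, SE 0.076, limma adjusted p = 0.0219). A row from 40139625 to 40140092 beside it fell from 84.6 ± 5.26 to 61.6 ± 3.53 FPKM (SD, n = 3; limma adjusted p = 0.0281). The ENSP row 2871 and 6177 bases after them rose by 0.38 log2 (149 ± 4.68 FPKM in control, 194 ± 4.16 FPKM after lentivirus; limma adjusted p = 0.0153). On chromosome X, a row from 76560133 to 76560517 had 170, 157 and 172 FPKM in control and 130.03, 129 and 129 FPKM in lentivirus libraries (log2 change -0.36, SE 0.046, limma adjusted p = 0.0205). The nearest ENSP row, 243764 bases away, rose from 2.03 ± 0.0857 to 6.84 ± 0.335 FPKM (limma adjusted p = 0.00529).

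Outside JK rows were present on 27 chromosomes, with 52 to 420 rows on each of 26 and 2 rows on chromosome Y. They made up 12.1% to 24.96% of the tested rows of those 26 chromosomes. Their calls leaned one way on several chromosomes, on some of them as the calls of the ENSP rows did and on others not. On chromosome 14, 1 of 191 was higher and 15 were lower, beside 8 and 67 of 454 ENSP rows. Over all tested rows of that chromosome, 111 of 1009 were called. On chromosome 8 the counts were 0 and 8 of 167, beside 5 and 54 of 497 ENSP rows. On chromosome 25 they were 0 and 7 of 149, beside 4 and 26 of 362. Over all tested rows of chromosomes 8 and 25, 75 of 965 and 42 of 674 were called. Chromosomes 18, 23 and 24 had 9, 8 and 8 higher and 0 lower, of 79, 163 and 141 outside JK rows. Beside them, 29, 26 and 36 ENSP rows were higher and 4, 5 and 5 lower. Over all their tested rows, 46 of 417, 42 of 781 and 60 of 823 were called. Chromosome 2 went the other way, with 8 higher and 2 lower of 220 outside JK rows, beside 11 higher and 23 lower ENSP rows. Over all its tested rows, 51 of 1181 were called. On chromosome 9 the counts were 6 and 2 of 205, beside a nearly even 19 and 16 among ENSP rows. On chromosome 16 they were an almost even 4 and 3 of 420, beside 9 and 48. Over all tested rows of chromosomes 9 and 16, 60 of 1050 and 76 of 1821 were called. The chromosomes were not tested as sets here, and the 4 that the rule leaves out were left out with their changes known.

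On chromosome 18, 9 of the 79 outside JK rows were called (11.4%), beside 46 of its 417 tested rows of any kind, a nearly equal share. Of these 9, 7 lay between 45428202 and 58630604. The uncalled rows of that stretch were not counted. Among the 7, the rows from 45615911 to 45616615 and from 45616441 to 45617066 overlap each other. Those from 54546921 to 54547529 and from 54547826 to 54548439 lie close together, so the 7 are not all separate places. The tightest (45616441 to 45617066) had 46.1, 45.6 and 45.8 FPKM in control and 65.7, 65.0 and 65.0 FPKM in lentivirus libraries (log2 change 0.50, SE 0.033, limma adjusted p = 0.00835). The 7 had log2 changes of 0.40 to 0.67, and distances to the nearest ENSP row of 54 to 3324 bases. Over all 79 outside JK rows of the chromosome, the median deviation from a row's mean was -0.056, 0.011 and -0.047 log2 in control libraries and 0.055, 0.082 and 0.085 log2 in lentivirus libraries.

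**Figure D5:**
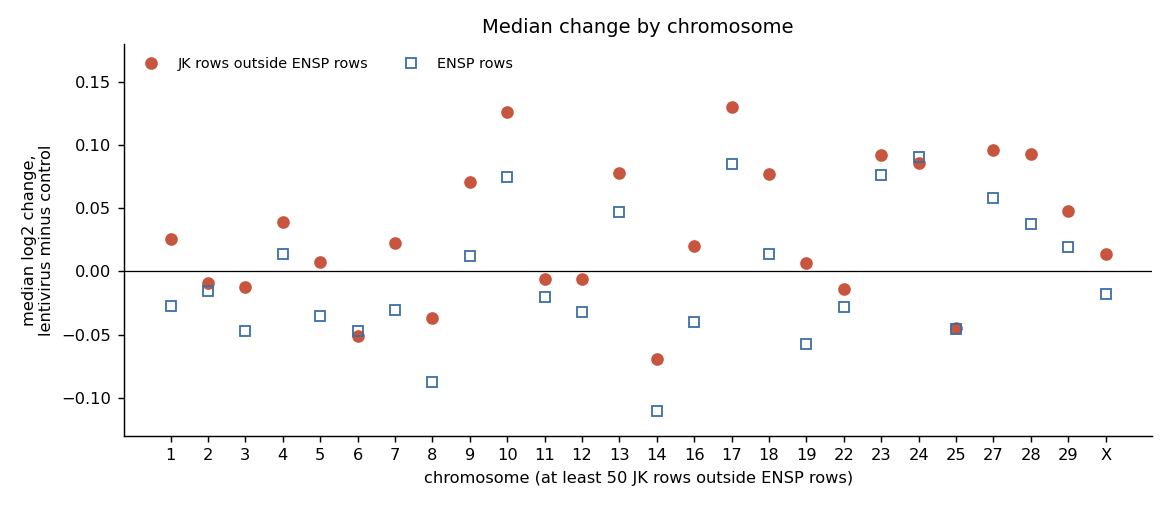
Median log2 change, lentivirus minus control (y axis), over the outside JK rows (filled circles) and the ENSP rows (open squares) of each of the 26 chromosomes with at least 50 outside JK rows. The medians run from -0.069 on chromosome 14 to 0.13 on chromosome 17 for outside JK rows, and have the same sign as those of the ENSP rows on 20 of 26 chromosomes.

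By chromosome, the median change of the outside JK rows had the same sign as that of the ENSP rows on 20 of 26 chromosomes and was the higher of the 2 on 24. It was lowest on chromosome 14, at -0.069 log2 (ENSP rows -0.11), and highest on chromosome 17, at 0.13 log2 (ENSP rows 0.085). The control and lentivirus libraries did not overlap in this median on 13 of the 26. The same count was not made for ENSP rows or for all tested rows, so it is not shown to be particular to outside JK rows. Rescaled to TPM, the median change over all outside JK rows was 0.038 log2, against 0.016 log2 over all tested rows.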

How the data were processed

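The authors deposited 1 table of FPKM values with 1 column per library. The tools that the submitters' processing notes list are Cufflinks 2.1.1, Cuffdiff, TopHat2 2.0.10, CASAVA and Bowtie2 2.1.0.0. Their roles and order are not given, nor are the scaling between libraries, the genome build and the annotation. Reads were not analysed here. Because 2 rows start at 0, deposited starts were taken to count from 0 and are given 1 higher. Libraries were matched to groups by their titles.

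Rows of at least 1 FPKM on average over 6 libraries were tested on log2(FPKM + 1) with limma 3.58.1 in R 4.3.3 (group as the only term, eBayes with an intensity trend, two-sided, Benjamini-Hochberg over all rows tested, threshold 0.05). A pseudocount understates changes of low rows. Overlapping rows, without regard to strand, were joined into 20566 loci, their FPKM summed and tested alike. The fits were also run on simulated data. There each row was drawn independently, unlike rows that overlap here, so that run does not vouch for the calls given above. Alternatives covered pseudocount, filter, scaling, replicate number as a block, left-out libraries and narrower sets of rows.

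The rows and lists were chosen with earlier results of these data known. Rows named singly were the 8 largest rises and falls (criteria in the text), the 6 highest, 3 longest, shortest and farthest, 3 on each side of the limit of 1 FPKM, and the 5 most abundant called rows with a called nearest ENSP row of the same or of the opposite direction. The called rows of chromosome 18, the rows near 0 in 1 group and the locus on chromosome 16 were named after their values were seen. At most 2 accessions were printed each way, as no table pairs them with genes. Gene lists and cell markers could not be read for the same reason. No outlier, group difference or unused data was left to flag.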

Additional observations from a re-analysis of the deposited data

How the results depend on the processing

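Leaving out 1 library gave 4 to 19 called outside JK rows in place of 187, 4 to 11 in place of 23 at 1 log2 or more, 165 to 254 in place of 356 loci, and medians of 0.013 to 0.033 log2 in place of 0.025. Over all tested rows it gave 48 to 118 calls in place of 1842. With no filter there were 105 calls, beside 1151 over all rows, and 13 at 1 log2 or more. A pseudocount of 5 gave 14 at that size. On the TPM scale the median change was 0.038 log2, and that of all tested rows moved as well, to 0.016 log2. Narrower sets hold fewer rows by construction, and their shares called were near the 4.20% of all outside JK rows. At least 1000 bases from an ENSP row, 108 of 2666 rows were called (4.05%, 13 calls at 1 log2 or more). At least 10000 bases away, 35 of 924 were called (3.79%, 3 at that size). Among rows that overlap no other, 78 of 1922 were called (4.06%, 2 at that size).

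With the replicate number as a block 0 outside JK rows were called in limma, also 0 at 1 log2 or more, with 850 at an unadjusted p under 0.05 against 867 without the block, and 226 loci. Over all tested rows, 0 were called with that block as well. Same-numbered libraries deviated together with correlations of 0.13, -0.028 and 0.0028, so the numbers are not shown to pair them. The other pseudocount, filter and scaling alternatives gave 192 to 229 calls, beside 1739 to 2058 over all tested rows. Of the 187, 183 were called again with a pseudocount of 0.1, 186 with one of 5, 182 with median ratio scaling, 172 with quantile normalization, 164 on the TPM scale and 173 with a filter of 5 FPKM, where the 229 calls are of 3356 rows (6.82%). All 25 called rows named singly kept their direction in every alternative, except the row on chromosome 14 that held the same rank in all 6 libraries and so had a change of 0 under quantile normalization. Depth is unknown, so counting error was not estimated.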

Other observations

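The rows that meet the same criteria on chromosomes 15, 20, 21 and 26 numbered 885, and 44 of them were higher and 27 lower (8.02%; limma adjusted p under 0.05). Their median span was 592 bases, their median level 17.0 FPKM and their median log2 change 0.040. With them, 258 of the rows outside ENSP rows were called.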
